A study of Bos taurus with 68 samples.

Results

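Liver gene expression on day 14 of lactation was compared with that on day -14, before calving, in the 3 cows (6934, 6983 and 7186) whose arrays for both days lie in the same table of deposited values. The comparison used 12 of the 68 arrays of the series, which make up 6 of 34 cow-days and come from 3 of 5 cows. All animals were Bos taurus, and the labels give a cow number and a day relative to calving but no breed, diet, parity or treatment. The whole series runs from day -65 to day 49. Each liver RNA was hybridised to cDNA arrays together with reference standard RNA, on a pair of arrays per cow-day in which Cy3 and Cy5 were exchanged. The composition of the reference is not given in the labels. The 2 tables are called larger and smaller by their number of arrays. Cows 6983 and 7186 lie in the larger table (60 arrays, 16416 rows) and cow 6934 in the smaller (8 arrays, 16896 rows). The smaller table came from a different array print. Each array was centred on its median, turned to liver over reference, averaged over the 2 spots of a clone and over the exchanged pair, and the day -14 value was subtracted from the day 14 value within each cow.

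Values are log2 ratios, so a difference of 1 is a doubling. The labels name the dye of each RNA but not which channel is the numerator. Liver over reference is therefore the likely direction only, taken because transcripts made by hepatocytes, such as those of SLC10A1 and TF, lay above the reference in all 6 cow-days. Should Cy3 be the numerator instead, all signs below are the opposite. In this direction the 5 hepatocyte marker genes on the array had a mean log2 ratio between 1.47 and 2.98 in the 6 cow-days. Not all of them lay above the reference throughout. APOA1 lay between -0.71 and 0.42 and ASS1 between -0.19 and 1.53 in the 6 cow-days. The 26 stellate cell, fibroblast and matrix markers had a mean between -1.44 and -0.44, and the 21 Kupffer cell and macrophage markers a mean between 0.58 and 1.62. In bulk tissue, fewer cells of a type and less RNA per cell cannot be told apart.

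The interval from day -14 to day 14 spans calving and the onset of milk production in dairy cows. Body fat is then mobilised, the liver takes up the released fatty acids, and these are burned in mitochondria, turned into ketone bodies or stored as triglyceride. The liver also makes the glucose from which the mammary gland builds lactose. Alongside hepatocytes it holds Kupffer cells, the resident macrophages that clear dying cells and particles from portal blood, and it secretes most acute phase and complement proteins of plasma.

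No clone passed the test. Of 5693 clones, 5410 had a value on all 12 arrays and were tested, and 0 of them (0%) had a limma adjusted p under 0.05. The smallest adjusted p was 0.998. At an unadjusted limma p under 0.05 there were 226 clones (4.18%), of which 107 (1.98%) lay higher and 119 (2.20%) lower on day 14, while a threshold of 0.05 alone would pass 270.5. The median 95% confidence interval reached 0.649 on the log2 scale to either side of a clone's mean difference. Each test rests on the spread between 3 cows and on 2 residual degrees of freedom, and an exact sign-flip test of 3 differences could not give a 2-sided p below 0.25. All differences named below are therefore descriptions of these 3 cows, and none is a change that passed a test.

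The 3 cows' differences did not run together across clones. Over the 5410 clones, which share arrays within a cow, Pearson's r was -0.06 between cows 6934 and 6983, -0.04 between cows 6934 and 7186 and 0.02 between cows 6983 and 7186. The levels themselves were alike within a cow, with r between days of 0.81 in cow 6934, 0.75 in cow 6983 and 0.68 in cow 7186. The 2 exchanged arrays averaged for a cow-day correlated less. Their r on days -14 and 14 was 0.63 and 0.74 in cow 6934 and 0.53 and 0.07 in cow 6983. In cow 7186 it was 0.12 and 0.04. Within a cow, the difference from the pair of arrays with liver in Cy3 and that from the pair with liver in Cy5 correlated at 0.11 in cow 6934, 0.09 in cow 6983 and 0.27 in cow 7186. The difference from the first and from the second spot of a clone correlated at 0.24 in cow 6934 and at 0.42 in cows 6983 and 7186. For the 868 genes with 2 clones, the mean difference correlated at 0.14 between the clones. A clone was higher on day 14 in all 3 cows in 602 cases (11.1%) and lower in all 3 in 537 (9.93%). Of these, 24 clones (0.444%) were higher and 38 (0.702%) lower by a mean of at least 1. The values of the 2 days did not overlap in 220 clones (4.07%).

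Cows 7079 and 7188 were not part of the comparison, because their days -14 and 14 lie in different tables. The order of the tables is crossed between them, so that a constant shift between tables cancels in the mean of their 2 differences. That mean had the same sign as the mean of the 3 cows in 2684 of 5112 clones (52.5%), and in 593 of the 1060 clones (55.9%) with the same sign in all 3 cows. Across clones the correlation was 0.09. A fit of all 5 cows with a term for the table had 0 of 5112 clones (0%) at a limma adjusted p under 0.05 and 318 (6.22%) at an unadjusted p under 0.05. The mean of cows 7079 and 7188 is given beside most results as the difference in cows 7079 and 7188, with no test.

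The clones with the smallest limma p that ran the same way in all 3 cows were taken as leading, 12 in each direction. This choice favours clones whose days do not overlap, which were 4.07% of all clones tested. In 10 of these 24 clones (PYGB, CEBPA, P2RX5, GMPR, ELMO2, DPP9, EIF3B, PIK3R5, URAD and SOX6) the exchanged arrays of at least 1 cow-day lay more than 3 log2 units apart, and a mean of such a pair rests on arrays that disagree. Among those lower on day 14 were several genes of macrophages. MS4A7, a membrane protein of macrophages, had the smallest p of all clones. Its log2 ratio on day -14 was 1.77 in cow 6934, 1.54 in cow 6983 and 1.41 in cow 7186, and on day 14 it was 0.13, -0.05 and 0.15. As means of the exchanged arrays, all 3 cows lay above the reference before calving and near it afterwards, with no overlap of days. The 2 arrays of a cow-day lay between 0.37 and 2.44 apart for this clone. With liver in Cy3 and in Cy5 they read 2.99 and 0.56 in cow 6934 on day -14. In cow 6983 on day 14 they read 1.10 and -1.19. The mean difference of MS4A7 was -1.50 ± 0.25 (SE, n = 3 cows), or 2.82-fold lower on day 14, and the clone had no mean in cows 7079 and 7188.

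TIMD4, the receptor with which resident macrophages bind phosphatidylserine on dying cells, was represented by 2 clones. The leading clone lay at 2.08 (cow 6934), 2.25 (cow 6983) and 2.03 (cow 7186) on day -14 and at 1.13, 0.63 and 0.62 on day 14, a mean difference of -1.33 ± 0.27 (SE, n = 3). The other clone lay at 1.95, 1.38 and 2.22 on day -14 and at 1.55, 0.42 and 0.99 on day 14, a mean difference of -0.86 ± 0.28. Both clones were lower in 3 of 3 cows. Both clones lay higher on day 14 in cows 7079 and 7188, by 0.85 and 0.95.

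CD209, a C-type lectin of dendritic cells and macrophages, lay at 1.36, 1.19 and 1.19 on day -14 in cows 6934, 6983 and 7186 and at 0.35, -0.14 and 0.26 on day 14. The mean difference of this clone was -1.09 ± 0.25 (SE, n = 3). A second clone of CD209 gave -0.66 ± 0.31 and was lower in cows 6934 and 6983 only, with 0.06 in cow 7186. C1QC, a chain of the C1q recognition molecule of complement that macrophages make, lay at 2.89, 2.14 and 3.57 on day -14 and at 2.11, 1.21 and 2.03 on day 14, a mean difference of -1.08 ± 0.27. A second clone of C1QC lay at 4.07, 1.82 and 3.68 on day -14 and at 2.35, 1.49 and 2.08 on day 14, a mean difference of -1.22 ± 0.34. For both C1QC clones each cow was lower on day 14, and the days overlapped only in the second. The C1QC clones differed the opposite way, by 0.22 and 1.10, in cows 7079 and 7188.

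**Figure D1:**
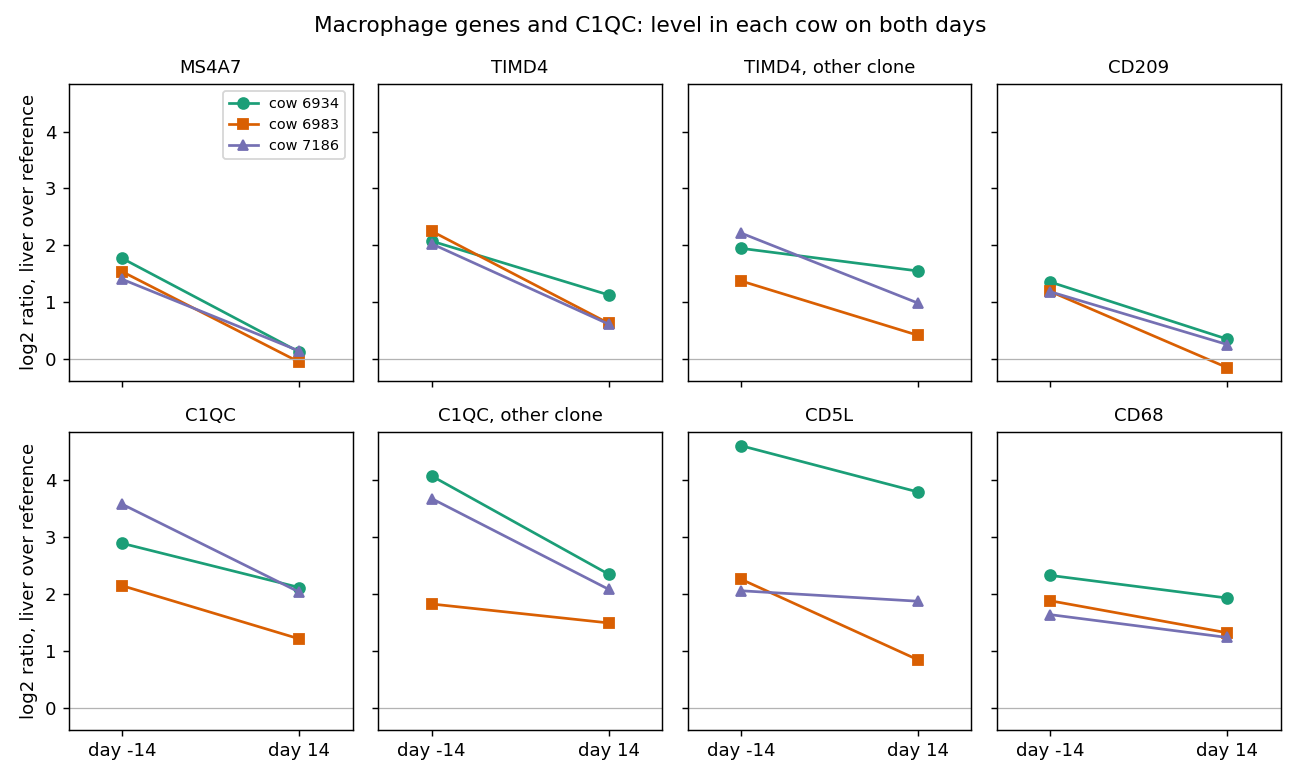
Log2 ratio of liver over reference (y axis) on day -14 and day 14 (x axis) for 8 clones of 6 genes of macrophages, with 1 line per cow and no error bars. Only clones that were lower in all 3 cows are shown, so all lines slope down by choice. MS4A7 goes from between 1.41 and 1.77 to between -0.05 and 0.15. CD163, VSIG4 and the second clone of CD209, with a difference of 0.06 in cow 7186, are not shown.

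The clones above were chosen because they lay lower, and the whole marker list was less uniform. Of the 21 Kupffer cell and macrophage markers tested, 15 lay below 0 and 6 above, 5 were lower and 0 higher in all 3 cows, and the median difference was -0.20. Over all clones tested, 54.4% had a mean above 0, 9.93% were lower in all 3 cows, and the median was 0.02. Without centring the arrays the median of all clones was 0.157 higher, 75.3% of clones lay above 0, and 12 of the 21 macrophage markers lay below 0. CD5L, a protein that macrophages secrete, differed by -0.80 ± 0.31 (SE, n = 3) and CD68, a lysosomal membrane protein of macrophages, by -0.45 ± 0.25, each lower in 3 of 3 cows. For these genes cows 7079 and 7188 gave 0.67 and -0.18. The scavenger receptor CD163 differed by 0.04 and the phagocytic receptor VSIG4 by 0.21, values that lie outside the naming rule and were picked after they were seen. Without cow 6983 the list split into 11 below and 10 above 0, with a median of -0.10. In cows 7079 and 7188 the median was 0.07, with 9 of 20 markers below 0. The mean level of the list fell short of its day -14 value on day 14 in each cow, at 1.62 and 1.52 in cow 6934, 1.08 and 0.58 in cow 6983, and 1.16 and 1.01 in cow 7186.

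Complement genes lay lower as a list, in cows 6983 and 7186. Complement is the plasma cascade that marks and lyses particles, and its components are made largely by hepatocytes and, for C1q, by macrophages. Of 11 genes tested, 10 lay below 0 and 1 above, and 4 were lower and 0 higher in all 3 cows. Among all clones tested, 54.4% lay above 0 and 9.93% were lower in all 3 cows. The median difference of the list was -0.65. The median was -0.01 in cow 6934, -1.18 in cow 6983 and -0.75 in cow 7186. C1R, the protease that starts the classical pathway, lay at 4.92, 5.12 and 5.50 on day -14 in cows 6934, 6983 and 7186 and at 4.72, 2.85 and 4.66 on day 14. Its mean difference of -1.11 ± 0.40 (SE, n = 3) rested mostly on cow 6983. C4A, the fourth component, differed by -0.96 ± 0.34 and C2, the protease that C4 binds, by -0.76 ± 0.35, the latter by 0.08 in cow 6934. Cows 7079 and 7188 gave 0.34 for C1R, 0.12 for C4A and 0.32 for C2. Without cow 6983 the list had 8 of 11 genes below 0 and a median of -0.32. Only 2 of 11 lay below 0 in cows 7079 and 7188, where the median was 0.22.

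The list of acute phase and coagulation proteins had 4 genes tested, none of them a coagulation factor. All had a mean below 0, 1 was lower in all 3 cows, and the median was -0.98. Over all clones tested, 54.4% had a mean above 0 and 9.93% were lower in all 3 cows. SERPINA3-3, an acute phase inhibitor of serine proteases, lay at 5.85, 7.14 and 6.84 on day -14 in cows 6934, 6983 and 7186 and at 5.69, 4.73 and 5.69 on day 14. Its mean difference was -1.24 ± 0.42 (SE, n = 3), lower in 3 of 3 cows, and -0.03 in cows 7079 and 7188. CP, the copper carrier ceruloplasmin, differed by -2.68, -2.13 and 0.82 in the same cows, a mean of -1.33 ± 0.61, and by 2.55 in cows 7079 and 7188. TF, the iron carrier transferrin, differed by -0.14 ± 0.28. The clone annotated as RBP4, the retinol carrier, differed between the tables, and its identity was not tested either. It lay at 0.24 and 0.61 in cow 6934 of the smaller table but at 5.74 and 4.00 in cow 6983 and 6.21 and 5.41 in cow 7186. The median of the list was 0.21 in cows 7079 and 7188.

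In cow 6983 the difference followed the level of the clone. Across 5410 clones its difference correlated at -0.41 with the clone's mean log2 ratio in other cows on other days, against -0.01 in cow 6934 and -0.10 in cow 7186. Clones with a level of at least 2, among them complement, acute phase and hepatocyte genes, had a median difference of -0.76 in cow 6983 (80 clones), and those with a level of -2 or less one of 1.15 (48 clones). The array of cow 6983 on day 14 with liver in Cy5 followed the level with a slope of 0.33, while the slopes of the other 11 arrays lay between 0.65 and 1.19. In cows 7079 and 7188 the relation ran the other way, with r of 0.29 and a median difference of 0.49 for clones with a level of at least 2. With the linear relation removed in each of the 3 cows, 9 of 11 complement genes were below 0 with a median of -0.33, and the macrophage markers split into 14 below and 7 above with a median of -0.08. With cow 6983 taken from its arrays with liver in Cy3 alone, the complement median was also -0.33, with 10 of 11 genes below 0. The acute phase list had 2 of 4 genes below 0 and a median of -0.16 with the relation removed. What part the relation to the level had in these lists was not tested beyond these values.

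**Figure D2:**
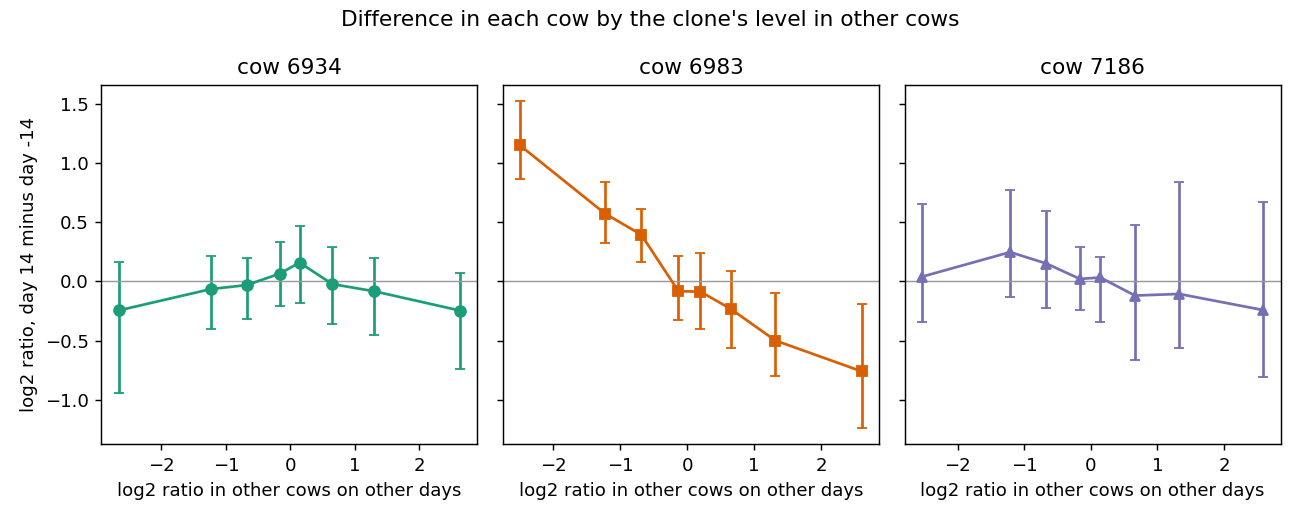
Median log2 difference, day 14 minus day -14 (y axis), of clones binned by their mean log2 ratio in other cows on other days (x axis), with 1 panel per cow and bars from the lower to the upper quartile of the clones in a bin. In cow 6983 the median goes from 1.15 in the lowest bin to -0.76 in the highest, and in the other cows it stays between -0.25 and 0.25.

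Genes of interferon response and antigen presentation also lay lower on balance. Of 18 tested, 12 lay below 0 and 6 above, and 6 were lower and 0 higher in all 3 cows. Over all clones tested, 54.4% lay above 0 and 9.93% were lower in all 3 cows. The list median was -0.21, with cow medians of -0.06, -0.04 and -0.22. Over all clones tested the cow medians were 0.07, -0.04 and 0.04, so cow 6983 did not lie lower than all clones. CXCL9, a chemokine induced by interferon gamma, differed by -1.17, -0.23 and -0.64 in cows 6934, 6983 and 7186 (mean -0.68 ± 0.28, SE, n = 3), but by 0.91 in cows 7079 and 7188. IRF1, a transcription factor of the interferon response, differed by -0.60 ± 0.29, and by -1.31 in cows 7079 and 7188. TAP1, a subunit of the peptide transporter for class I presentation, differed by -0.73 ± 0.41 with -1.99 in cow 6983, and by -0.83 in cows 7079 and 7188. In those 2 cows 14 of 16 genes of the list lay below 0, with a median of -0.39. The median stayed below 0 without any 1 of the 3 cows and with the relation to the level removed (-0.20).

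Lymphocyte and neutrophil markers showed no common direction, with 3 of 9 above 0 and a median of -0.04. CD247, the zeta chain of the T cell receptor, differed by -0.17, 2.01 and 1.25 in the 3 cows (mean 1.03 ± 0.41, SE, n = 3). CCL5, a chemokine of T cells, differed by -0.73 ± 0.31 in the clone that stands for it in the list, while its 2 other clones gave 1.11 and 0.85. The values in cows 7079 and 7188 were 0.36 for CD247, 0.60 for that CCL5 clone and 0.15 for HBQ1. HBQ1, a globin chain, differed by -1.50, -0.60 and -0.92, a mean of -1.01 ± 0.28, but the 3 erythroid and platelet markers had a median of -0.22 that was 0.62 in cow 6983.

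The remaining leading clones lower on day 14 came from several functions. EIF3B, the scaffold of the translation factor eIF3, differed by -1.17, -1.99 and -0.96 in cows 6934, 6983 and 7186 (mean -1.37 ± 0.29, SE, n = 3). FOLR1, a folate receptor, differed by -1.19 ± 0.26, and PIK3R5, a regulatory subunit of the leukocyte phosphoinositide 3-kinase, by -1.28 ± 0.29. HDAC5, a class IIa histone deacetylase, differed by -1.29 ± 0.31, AGTRAP, a protein that binds the angiotensin receptor, by -1.06 ± 0.28 and SOX6, a transcription factor, by -1.16 ± 0.32. The mean values of the days did not overlap for any of these 6 clones, while over all clones tested this held for 4.07%. The 6 were picked for a small p and a common sign, so the separation adds no support. For EIF3B, however, the arrays of cow 6983 on day -14 read 3.40 (liver in Cy3) and -3.02 (liver in Cy5). For PIK3R5 those of cow 7186 read 2.85 and -1.95 on day -14 and 1.71 and -4.31 on day 14. In cows 7079 and 7188 HDAC5 differed by -0.29 and AGTRAP by -0.12, and the other 4 had no mean there.

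Among the leading clones were also URAD and LOC327709. URAD, an enzyme of uric acid degradation, lay at 2.97, 2.64 and 2.66 on day -14 in cows 6934, 6983 and 7186 and at 0.35, -1.32 and 2.40 on day 14. Its mean difference of -2.28 ± 0.61 (SE, n = 3), 4.87-fold lower, was the largest among the leading clones, but cow 7186 differed by only -0.27 and a second clone of URAD gave -0.31 ± 0.31. LOC327709, a mu class glutathione S-transferase, lay at 2.91, 2.95 and 4.11 on day -14 and at 1.43, 2.48 and 2.60 on day 14, a mean difference of -1.15 ± 0.30, with -0.05 in cows 7079 and 7188. Related genes of this class could bind to the same cDNA clone. The list of xenobiotic metabolism and antioxidants had 14 of 31 genes above 0 and a median of -0.12.

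Among the clones with the largest mean differences, 3 further ones were lower in all 3 cows. TMT1B, a thiol methyltransferase, differed by -2.71, -0.80 and -0.91 (mean -1.47 ± 0.40, SE, n = 3), but by 0.65 in cows 7079 and 7188. IER5, an immediate early gene, differed by -2.30, -1.48 and -0.33 (mean -1.37 ± 0.38). The 2 other clones of IER5 gave 0.27 and 0.08. The clone annotated as UNC13D, which primes secretory granules in leukocytes, differed by -0.02, -3.12 and -1.15 in the 3 cows, a mean of -1.43 ± 0.53. Its level differed between the tables, at -0.76 on day -14 in cow 6934 against 6.51 and 6.18 in cows 6983 and 7186. The annotation can be old, and whether this clone holds UNC13D was not tested. Its difference was 5.56 in cow 7079 and -7.05 in cow 7188, whose days lie in different tables.

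**Figure D3:**
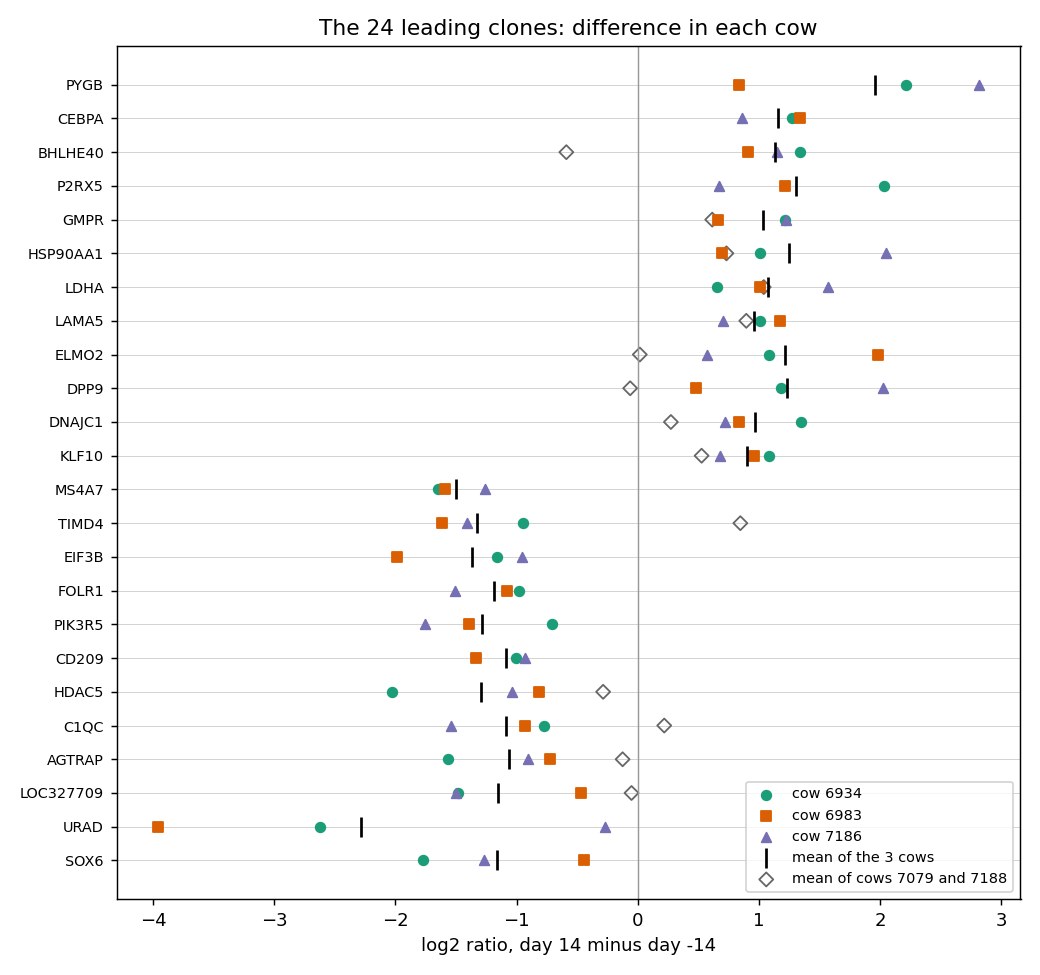
Log2 difference, day 14 minus day -14 (x axis), of the 12 leading clones in each direction (y axis, by gene). Filled symbols are the 3 cows, the vertical bar their mean and open diamonds the mean of cows 7079 and 7188 where both were measured. In those cows 7 of 9 clones of the higher group and 3 of 5 of the lower group kept their sign.

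On the higher side, PYGB led. It encodes a glycogen phosphorylase, first described in brain, that releases glucose units from glycogen. Its log2 ratio lay at -0.54, -0.62 and -1.85 on day -14 in cows 6934, 6983 and 7186 and at 1.67, 0.22 and 0.97 on day 14, with no overlap, a mean difference of 1.96 ± 0.39 (SE, n = 3) or 3.88-fold. On day -14 the array of cow 7186 with liver in Cy5 read -5.06 and its partner 1.37, so that cow's difference rests on arrays that disagree. The liver phosphorylase PYGL, picked after its value was seen, differed by -0.02, and the 13 genes of glycolysis and glycogen had 7 above 0 and a median of 0.01.

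LDHA, a subunit of lactate dehydrogenase, which converts pyruvate and lactate into each other, lay at -2.52, -2.77 and -2.42 on day -14 in cows 6934, 6983 and 7186. On day 14 it lay at -1.86, -1.76 and -0.85. Every day 14 value exceeded every day -14 value, and the mean difference was 1.08 ± 0.28 (SE, n = 3), or 2.11-fold. The dye orientations gave 0.81 (liver in Cy3) and 1.35 (liver in Cy5), and cows 7079 and 7188 gave 1.04. In cow 6983 the day 14 arrays read -2.63 (liver in Cy3) and -0.90 (liver in Cy5). Clones with a level of -2 or less had a median difference of 1.15 in that cow. LDHA kept its direction with the relation to the level removed, and what part that relation had was not tested further. HSP90AA1 and STMN1 also lay below the reference on day -14, and the same limit applies to them.

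HSP90AA1, the stress-inducible form of the chaperone Hsp90, lay at -1.09, -2.19 and -1.78 on day -14 and at -0.08, -1.49 and 0.27 on day 14 in cows 6934, 6983 and 7186. Each cow was higher on day 14, though the days overlapped, and the mean difference was 1.25 ± 0.32 (SE, n = 3), with 0.73 in cows 7079 and 7188. HSPA8, the constitutive Hsp70, differed by 0.36, 0.90 and 1.75 (mean 1.00 ± 0.32) and by 0.41 in cows 7079 and 7188, while its second clone gave -0.19 ± 0.40 with -1.41 in cow 6934. HSPD1, the mitochondrial chaperonin Hsp60, differed by 0.17, 0.29 and 1.55 (mean 0.67 ± 0.34) and by 1.23 in cows 7079 and 7188. BAG1, a nucleotide exchange factor of Hsp70, was the member that ran lower in all 3 cows, at -0.58 ± 0.30, with -0.21 in cows 7079 and 7188.

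As a list, heat shock proteins and chaperonins lay higher on day 14. Of 20 genes tested, 16 lay above 0 and 4 below, 5 were higher and 1 lower in all 3 cows, and the median was 0.17, with cow medians of 0.07, 0.24 and 0.58. Without cow 7186, in which the differences were largest, 15 of 20 lay above 0 with a median of 0.16. In cows 7079 and 7188 also 15 of 20 lay above 0, with a median of 0.25. The median was 0.19 with the relation to the level removed. The share of all clones above 0 was 54.4%, and 11.1% of all clones were higher and 9.93% lower in all 3 cows.

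**Figure D4:**
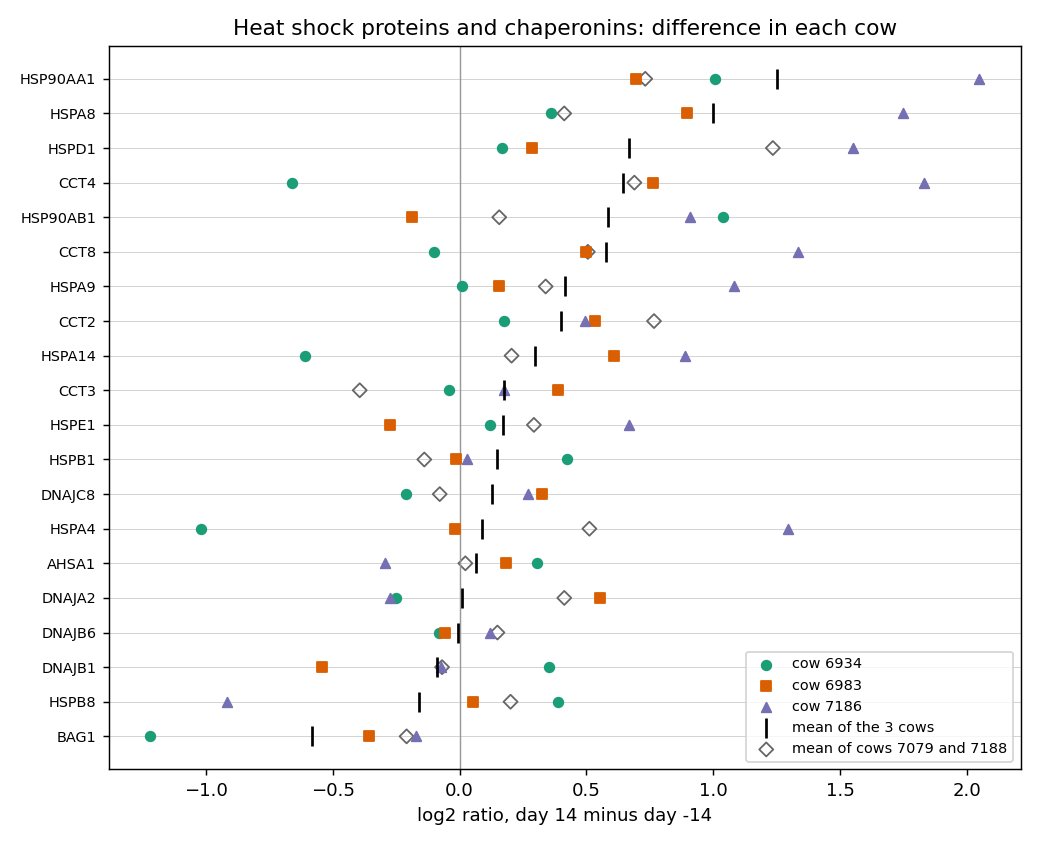
Log2 difference, day 14 minus day -14 (x axis), of the 20 heat shock protein and chaperonin genes (y axis). Filled symbols are the 3 cows, the vertical bar their mean and open diamonds the mean of cows 7079 and 7188. The means run from -0.58 (BAG1) to 1.25 (HSP90AA1), and cow 7186 gives the highest value for most genes in the upper part.

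Translation factors and tRNA synthetases had 21 of 29 genes above 0, with 7 higher and 1 lower in all 3 cows. Of all clones tested, 54.4% lay above 0, and 11.1% were higher and 9.93% lower in all 3 cows. The list median was 0.23. The median was -0.11 in cows 7079 and 7188, with 15 of 27 genes below 0. EIF4B, which assists the eIF4A helicase, differed by 0.74, 0.81 and 0.73 in the 3 cows (mean 0.76 ± 0.24, SE, n = 3) and by 0.77 in cows 7079 and 7188. YARS1, the tyrosyl-tRNA synthetase, differed by 0.82 ± 0.26 with no overlap of days, and EIF3M, a subunit of eIF3, by 0.79 ± 0.33. For those genes cows 7079 and 7188 gave -0.12 and -0.14. EIF3B, given above, is the member of this list that lay lower in all 3 cows.

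The other leading clones on the higher side were CEBPA, BHLHE40, P2RX5, GMPR, LAMA5, ELMO2, DPP9, DNAJC1 and KLF10, with mean differences from 0.91 to 1.31. The value of CEBPA, GMPR and P2RX5 depended on the dye orientation. CEBPA, a transcription factor of hepatocytes, differed by 1.16 ± 0.26 (SE, n = 3), which was 2.39 on the arrays with liver in Cy3 and -0.07 on those with liver in Cy5, and its second clone gave 0.14. GMPR, the GMP reductase, gave -0.04 with liver in Cy3 and 2.11 with liver in Cy5, and its second clone gave -0.10 against 1.03 for the leading clone. P2RX5, an ATP-gated channel, gave 0.27 with liver in Cy3 and 2.34 with liver in Cy5. BHLHE40, a repressor linked to the circadian clock, differed by 1.13 ± 0.25, but its 2 other clones gave 0.01 and 0.41, and cows 7079 and 7188 gave -0.59. LAMA5, a laminin chain of basement membranes, differed by 0.96 ± 0.25, while its 3 other clones gave 0.09, 0.44 and -0.96. LAMA5 and GMPR differed by a mean of 0.90 and 0.61 in cows 7079 and 7188. The single values of cow 7079 and cow 7188 were 1.92 and -0.13 for LAMA5 and 1.08 and 0.15 for GMPR.

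The remaining 4 leading clones were KLF10, DNAJC1, ELMO2 and DPP9. KLF10, a zinc finger protein induced by TGF-β, differed by 1.08, 0.96 and 0.68 in cows 6934, 6983 and 7186 (mean 0.91 ± 0.25, SE, n = 3) and by 0.53 in cows 7079 and 7188. DNAJC1, a co-chaperone in the membrane of the endoplasmic reticulum, differed by 1.35, 0.83 and 0.72 (mean 0.97 ± 0.26) and by 0.27 in those cows. ELMO2, an adaptor of Rac activation, differed by 1.21 ± 0.32 and DPP9, a dipeptidyl peptidase, by 1.23 ± 0.34, against 0.02 and -0.06 in cows 7079 and 7188.

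For 3 clones with large mean differences, 1 of the 3 cows had most of the value. COL18A1, a basement membrane collagen, differed by 3.41 in cow 6934 but 0.81 and 0.16 in the others, and its second clone gave -0.19, while cows 7079 and 7188 gave 1.60. NOTCH1, a receptor of cell fate signalling, differed by 3.14, 0.72 and 0.51. MSMO1, an enzyme of sterol synthesis, differed by 0.09, 0.20 and 3.46, the last in cow 7186, and by 1.03 in cows 7079 and 7188. The 7 genes of cholesterol synthesis and uptake had 5 below 0 and a median of -0.05, and NSDHL, another sterol enzyme, differed by -0.52, -0.51 and -0.38 (mean -0.47 ± 0.25, SE, n = 3), but by 0.49 in cows 7079 and 7188.

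Genes of fatty acid oxidation and ketogenesis had no common direction. Of 15 tested, 7 lay above 0 and 8 below, with a median of -0.11 and cow medians of 0.17, -0.60 and -0.06. In cows 7079 and 7188, 3 of 15 lay below 0 and the median was 0.34. CPT1A, the enzyme that commits long-chain fatty acids to mitochondrial oxidation, lay at 1.29, 0.40 and 0.80 on day -14 in cows 6934, 6983 and 7186 and at 1.94, 0.54 and 1.88 on day 14. It was higher in 3 of 3 cows by a mean of 0.63 ± 0.28 (SE, n = 3) and by 1.01 in cows 7079 and 7188, while its second clone gave 0.09 and 0.57. ACAA1, the peroxisomal thiolase, differed by -0.92 ± 0.27, with -0.18 for its second clone and 0.64 in cows 7079 and 7188. ACSL1, which activates fatty acids, differed by 0.04, -1.14 and 1.83, ACADVL, the dehydrogenase for very long chains, by -0.11 ± 0.25, and ETFB, a subunit of the electron carrier of these dehydrogenases, by -0.56 ± 0.32. Cows 7079 and 7188 gave 0.97 for ACSL1, 0.24 for ACADVL and -0.35 for ETFB.

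Gluconeogenesis and the fate of pyruvate were covered by 9 genes, 8 of them above 0 and 3 higher in all 3 cows, with a median of 0.09. Over all clones tested, 54.4% lay above 0 and 11.1% were higher in all 3 cows. Pyruvate carboxylase (PC), which feeds pyruvate into glucose synthesis, differed by 0.17, 0.12 and 0.10, a mean of 0.13 ± 0.24 (SE, n = 3), and by -0.46 in cows 7079 and 7188. PDK4, the kinase that shuts pyruvate dehydrogenase, differed by -0.06, 0.24 and 0.99, a mean of 0.39 ± 0.29, and by 1.13 in cows 7079 and 7188. MDH1, the cytosolic malate dehydrogenase, differed by 0.43 ± 0.27. PCK1, PCK2, APOB, GHR, IGF1, IGFBP2, FABP1, DGAT1, SCD and CPS1 were not analysed here.

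Of 10 genes of the urea cycle and amino acid metabolism, 7 lay below 0, with a median of -0.04. MAT2A, which makes S-adenosylmethionine, lay at 0.52, 0.04 and 0.33 on day -14 and at 0.78, 0.71 and 1.58 on day 14 in cows 6934, 6983 and 7186, a mean difference of 0.73 ± 0.29 (SE, n = 3), with 0.74 in cows 7079 and 7188. AHCY, which hydrolyses S-adenosylhomocysteine, differed by -0.48, -0.60 and -1.55, a mean of -0.88 ± 0.30, with 0.17 in cows 7079 and 7188. ASS1, an enzyme of the urea cycle, differed by -0.33 ± 0.26.

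The growth hormone, IGF and insulin axis had 8 of 15 genes above 0 and a median of 0.02. FOXO3, a transcription factor that insulin signalling inhibits, differed by -0.62 ± 0.26 (SE, n = 3), lower in 3 of 3 cows, but by 0.76 in cows 7079 and 7188. IGFBP3, the main IGF carrier of plasma, differed by -0.25 ± 0.27, and its 2 other clones gave 0.21 and -0.30. Fatty acid and triglyceride synthesis had 7 of 13 genes above 0 and a median of 0.03, with ACLY, which makes cytosolic acetyl-CoA, at 0.07 ± 0.26 in the clone of the list and -0.23 in its second clone. The 3 genes of lipoproteins and bile acids had a median of -0.24. Among them SLC10A1, the bile acid uptake transporter, differed by -1.29, -0.78 and 0.51 and APOA1, the main protein of high-density lipoprotein, by 0.36, 0.01 and -0.44, against 0.97 and -0.36 in cows 7079 and 7188. The 5 hepatocyte markers all had a mean below 0, with a median of -0.33, but with the relation to the level removed 3 of 5 lay below 0.

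Cell cycle genes had 14 of 17 above 0 and a median of 0.25, with 7 higher and 1 lower in all 3 cows. The shares over all clones tested were 54.4% above 0, and 11.1% higher and 9.93% lower in all 3 cows. STMN1, a microtubule destabiliser of dividing cells, differed by 0.17, 1.71 and 0.63 (mean 0.84 ± 0.34, SE, n = 3), but by -0.17 on the arrays with liver in Cy3 alone. CKS1B, a subunit of cyclin-dependent kinases, differed by 0.62 ± 0.29 and CDK6, such a kinase, by 0.47 ± 0.25. Cows 7079 and 7188 gave -0.11 for STMN1, 0.36 for CKS1B and -0.01 for CDK6. With the relation to the level removed the list median was 0.06, and in cows 7079 and 7188 it was -0.24, with 13 of 16 genes below 0. Stellate cell, fibroblast and matrix markers had 18 of 26 above 0 and a median of 0.12. That median came from cow 6983, at 0.64, against -0.20 in cow 6934 and -0.01 in cow 7186, and was -0.34 in cows 7079 and 7188. COL3A1, a fibrillar collagen, differed by -2.31, 1.52 and 1.69, and LAMA4, a laminin of vessel walls, by -0.55 ± 0.25, against -0.36 and 0.20 in cows 7079 and 7188.

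In the mean of the 3 cows, the larger lists of cell maintenance lay near the median of all clones, but single cows differed. Oxidative phosphorylation and the TCA cycle had 25 of 47 genes above 0 with a median of 0.02, cytosolic ribosomal proteins 21 of 46 with -0.03, and endoplasmic reticulum folding and secretion 28 of 51 with 0.03. Proteasome and ubiquitin genes had 13 of 22 above 0 with a median of 0.10. In all 3 cows 7 of these 22 were higher and 3 lower, against 1 and 9 of the 51 endoplasmic reticulum genes. The counts were 6 and 1 for oxidative phosphorylation and the TCA cycle and 2 and 3 for ribosomal proteins. Over all clones tested, 11.1% were higher and 9.93% lower in all 3 cows. The medians in cows 6934, 6983 and 7186 were -0.18, 0.31 and -0.15 for ribosomal proteins. For endoplasmic reticulum genes they were 0.15, -0.28 and 0. In cows 7079 and 7188, 36 of 45 ribosomal genes lay below 0, with a median of -0.27. For oxidative phosphorylation and the TCA cycle 30 of 47 did so, for the endoplasmic reticulum 27 of 50 and for the proteasome 13 of 22. Endothelial markers had a median of -0.04 over 9 genes, bile duct epithelial markers 0.03 over 10, and adipose and muscle markers 0.18 over 5, the last with 0.69 in cow 6983.

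**Figure D5:**
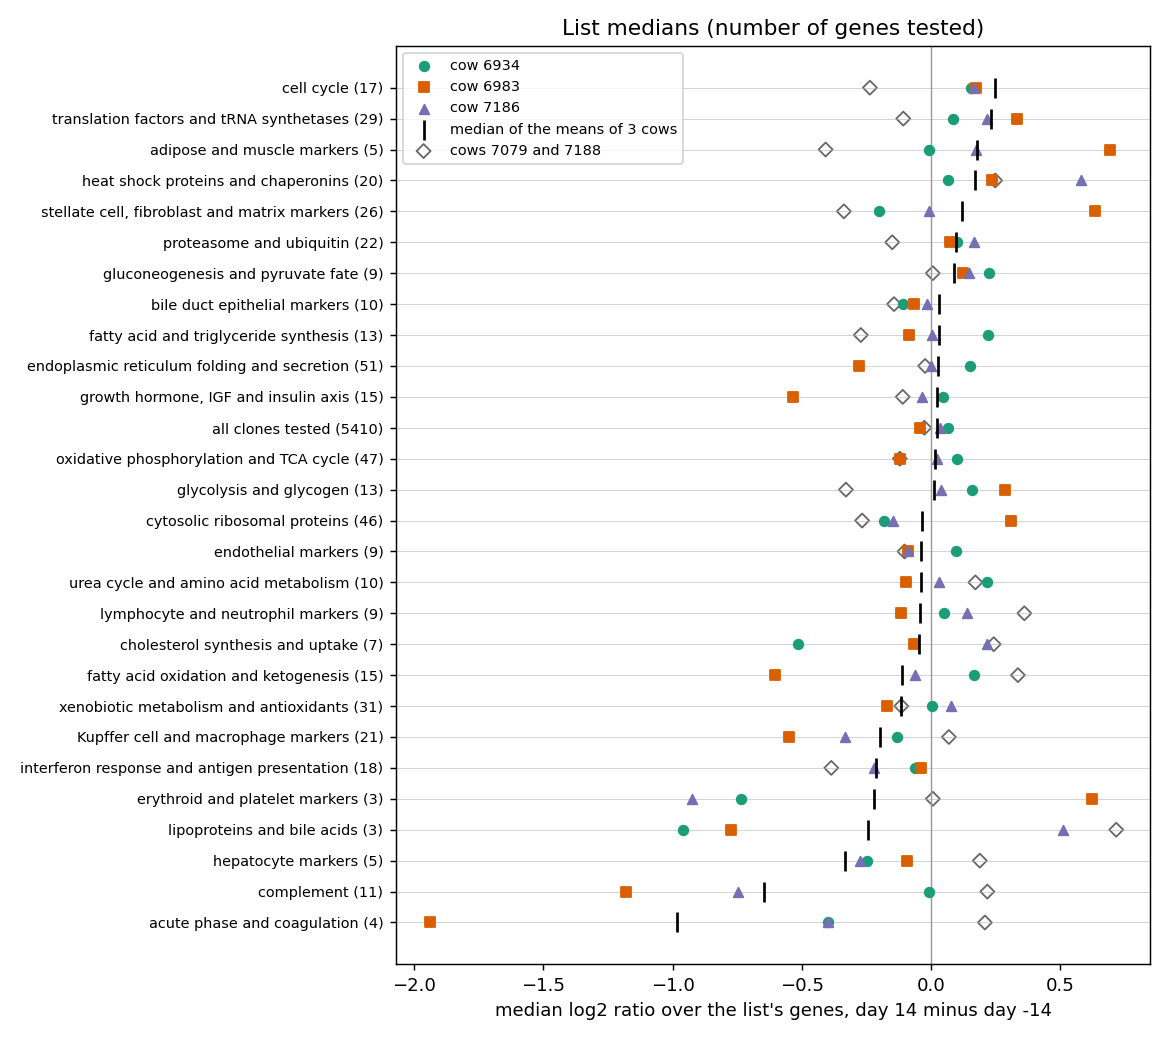
Median log2 difference, day 14 minus day -14 (x axis), of the genes of each list and of all clones tested (y axis, number tested in brackets). Filled symbols are medians within a cow, the vertical bar the median of the 3-cow means and open diamonds cows 7079 and 7188. Complement runs from -0.01 in cow 6934 to -1.18 in cow 6983, and its diamond lies at 0.22.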

How the data were processed

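Liver RNA of 12 arrays was compared between days -14 and 14. The authors deposited a log2 ratio of the dye channels per spot, scanned on a Scanarray 4000 and quantified with GenePix 4.0 per the labels. Whether they subtracted background, flagged spots or normalized is not given in the sources used here. Without channel intensities the signal over background is unknown, and precision is limited by how many arrays there are. Between 15525 and 16090 rows were measured per array, and array medians lay between -0.79 and 0.007. Of the deposited values of size 3 to 5, 44.1% equalled, to 3 decimals, the log2 of some pair of integers up to 40 divided by each other. Of the possible values in that range 2.6% do so, and large ratios are taken as inexact. Clones were named from the platform annotation, with symbols of 5591 of 5693 clones updated through gene identifiers. Of these clones 5598 name 1 gene and 95 name several; the latter were tested but not named.

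Within-cow differences were tested in limma 3.58.1 (R 4.3.3) against 0 with empirical Bayes moderation (prior degrees of freedom 5.47) and Benjamini-Hochberg adjustment over 5410 clones, 2-sided; 283 clones lacking a value were left out. Each SE is the moderated one. Differences are within cow, so the animal is blocked by construction. Nothing says that the arrays of a pair came from separate extractions, so an exchanged pair counts as 1 value. The script was tested on simulated data.

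Genes were named by a rule: up to 12 clones each way with the smallest p and up to 5 with the largest mean among those alike in sign in all 3 cows, up to 4 per list with the smallest p, and a set always named. The 27 lists hold 19 pathways and 8 marker sets. Where a gene had several clones, 1 clone stands for it in a list. Members and lists were chosen with earlier results of these data known. The alternatives left out each cow, changed centring, scaling, dye orientation and spot filters, dropped the block, or used all 5 cows or all 7 days; 3 kinds added after seeing the data used cows 7079 and 7188, 1 orientation of cow 6983, or removed the relation to the level.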

Additional observations from a re-analysis of the deposited data

How the results depend on the processing

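The number of clones past an adjusted p of 0.05 was 0 in each of the 15 alternatives that give a test, where the smallest adjusted p was 0.118 (URAD without cow 7186). The count at an unadjusted p under 0.05 was 226. It was 65 without the block for cow, which pairs the days of the same animal, and between 242 and 394 with each cow left out in turn, the highest without cow 6934. These fits rest on 2 differences per clone and on a spread pooled over clones. Without centring the arrays, 1290 clones were higher and 245 lower in all 3 cows, against 602 and 537, and 942 were higher on the arrays with liver in Cy3 alone.

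Of 74 named clones, 61 kept their direction in the alternatives with a test in which they were measured. Clones picked for a common sign in all 3 cows could not turn when a cow was left out. Nor could they turn without the block or with 2 of 3 cows required, so their choice fixed part of this count. Cows 7079 and 7188 alone are not among these alternatives. There 7 of 9 leading clones higher on day 14 and 3 of 5 lower ones kept their sign. On the arrays with liver in Cy5 alone, CEBPA turned to -0.070, TF to 0.026, ACSL1 to -0.34 and ACLY to -0.056. With liver in Cy3 alone, GMPR turned to -0.041, APOA1 to 0.0083, RBP4 to 0.031 and STMN1 to -0.17. With all 5 cows and a term for the table, PC was -0.10, SLC10A1 0.077, CP 0.22, ACADVL 0.027 and ACLY -0.067, and with all 7 days of the larger table PC was -0.0087 and ACLY -0.074. Without centring, APOA1 was 0.14, TF 0.021 and ACADVL 0.046. With arrays scaled to 1 median absolute deviation, where values are not log2 ratios, these genes were at 0.060, 0.94 and 0.47. With cow 6983 taken from its arrays with liver in Cy3, APOA1 was 0.020 and RBP4 0.070. With the relation to the level removed, SLC10A1 was 0.066, RBP4 0.016, TF 0.46, ACADVL 0.17 and COL3A1 -0.16. With 1 cow left out at a time, APOA1 ran from -0.21 to 0.19, TF from -0.31 to 0.12, ACSL1 from -0.55 to 0.93, ACLY from -0.079 to 0.25 and COL3A1 from -0.40 to 1.61. The cause was not tested.

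Over the same 15 alternatives the list median lay between -1.16 and -0.31 for complement and -0.41 and -0.04 for macrophage markers. It lay between -0.33 and -0.06 for interferon response and 0.16 and 0.47 for heat shock proteins. For translation it lay between 0.11 and 0.43, and for the cell cycle between 0.03 and 0.41. In 1 of the 15 the arrays were scaled to 1 median absolute deviation, so its values are not log2 ratios. In cows 7079 and 7188 alone, which are not among these 15, the median was 0.22 for complement, 0.07 for macrophage markers, -0.39 for interferon response, 0.25 for heat shock proteins, -0.11 for translation and -0.24 for the cell cycle. Counting those cows as a further alternative, 86 of 432 pairs of a list and an alternative moved by more than the SD between the cows' medians.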
